A study of Homo sapiens with 4 samples.

Results

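NOS3 and ATG9B are neighbouring genes on human chromosome 7 whose 3′ ends overlap on opposite strands. The values described here are the 2 rows of a gene count table that carry these symbols, of 59385 rows in all. Both were chosen by symbol with their values in libraries labelled siEZH2 and siCTRL already known. Their counts and differences are therefore given as a description, with no test.

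RNA was sequenced from C4-2 cells, an epithelial line obtained from LNCaP prostate cancer cells, which has androgen receptor and grows without added androgen. In 2 libraries the cells are labelled as carrying a small interfering RNA against EZH2 (siEZH2), and in the other 2 as carrying a control small interfering RNA (siCTRL). All were grown in RPMI medium with 10% fetal bovine serum, and neither the time after transfection, the siRNA sequence nor the number of siRNAs is given in the labels. The labels do not say whether the 2 libraries of a group came from separate cultures, so the spread between them may be technical.

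NOS3 encodes endothelial nitric oxide synthase, which makes nitric oxide from arginine when bound by calmodulin and is best known from the lining of blood vessels, where nitric oxide relaxes smooth muscle. ATG9B is a paralog of ATG9A, a multi-spanning membrane protein that moves lipids between membrane leaflets and seeds the growing autophagosome. ATG9B has also been called NOS3AS, for NOS3 antisense, because its transcript can run into the 3′ end of NOS3. EZH2 is the methyltransferase of Polycomb repressive complex 2, which places methyl groups on lysine 27 of histone H3 at silenced genes.

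In GENCODE release 29 (GRCh38), NOS3 (ENSG00000164867) lies on the plus strand at chr7:150990995-151014588. ATG9B (ENSG00000181652) lies on the minus strand at chr7:151012209-151024499. The genes are arranged tail to tail, and their spans overlap by 2380 bases. Over all annotated isoforms, 786 exonic bases belong to both, which is 13.3% of the NOS3 row's length of 5931 bases and 12.3% of the ATG9B row's length of 6391 bases. No other annotated gene faces the exons of either gene. The rest of each row therefore has no annotated exon on the other strand.

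Of 10 annotated NOS3 isoforms, 5 share bases with ATG9B, and of 12 annotated ATG9B isoforms, 6 share bases with NOS3. The full-length isoform NOS3-201 has 27 exons and 4388 bases, of which 3609 are coding. The long isoform ATG9B-212 has 17 exons and 4539 bases, of which 2772 are coding. Between these 2 isoforms 662 bases are shared, in 4 segments of 122, 149, 183 and 208 bases. On the NOS3 side 539 of the shared bases are coding and the other 123 are the stop codon and 3′ untranslated region. On the ATG9B side none is coding, so the overlap sets the end of the NOS3 reading frame against the 3′ untranslated region of ATG9B. The coding isoform ATG9B-203 ends before the overlap and shares no base with NOS3, and neither do the shorter isoforms NOS3-204 and NOS3-210.

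The overlap is shown at the NOS3 stop codon, chr7:151014153-151014182, where a read can be placed on one gene or the other by its strand alone. Both transcripts are written 5′ to 3′, the first from the plus strand and the second from the minus strand, with the NOS3 stop codon and its complement in capitals.
NOS3-201: acaccaacagccccTGAgagccgcctggct
ATG9B-212: agccaggcggctcTCAggggctgttggtgt
All 662 bases shared by NOS3-201 and ATG9B-212 were complementary in this way.

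**Figure D1:**
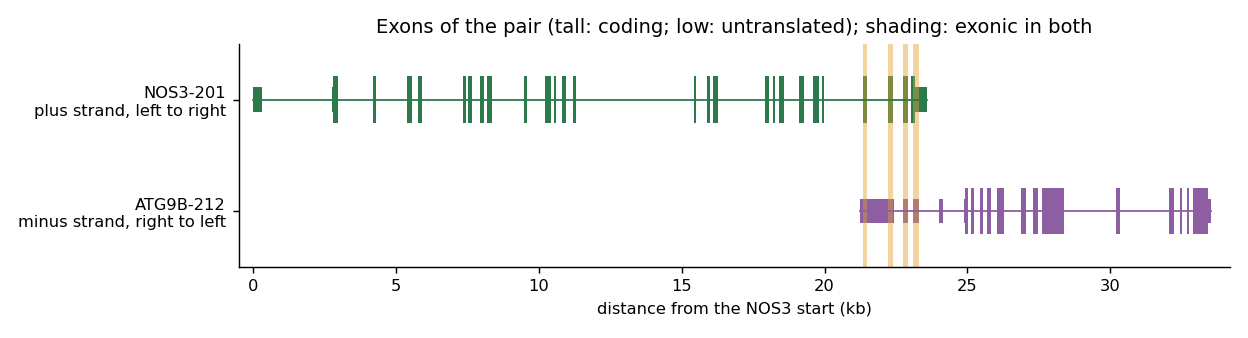
Exons of NOS3-201 (upper, transcribed left to right) and ATG9B-212 (lower, transcribed right to left) to scale, with the horizontal axis in kilobases from the start of NOS3, tall boxes for coding and low boxes for untranslated sequence. The 4 shaded segments, exonic in both, lie at the last exons of NOS3 and on untranslated exons of ATG9B.

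The libraries differed in ways that touch both rows. Total counts were 6362561 and 6162123 in the siEZH2 libraries and 6867542 and 6818482 in the siCTRL libraries, and the TMM scaling factors that edgeR gave were 1.12 and 1.34 against 0.704 and 0.945. Between 16480 and 28156 rows had at least 10 counts, with both siEZH2 libraries above both siCTRL libraries. The EZH2 row had 60 and 131 counts in the siEZH2 libraries and 39 and 59 in the siCTRL libraries, a log2 difference of 0.51 ± 0.52 (SE; edgeR adjusted p = 0.621). The EZH2 row was thus not lower in the libraries labelled siEZH2, and the group names below are those labels only. The strand setting of the counting is not known, so whether this row counts EZH2 messenger RNA was not tested. Rows of 380 olfactory receptor genes, which are normally silent outside the nose, held 4.7 and 6.34 counts per kilobase in the siEZH2 libraries and 1.32 and 3.15 in the siCTRL libraries. Across 24431 rows tested with edgeR's quasi-likelihood test, 0.0% were called higher and 0.0% lower in siEZH2 libraries at an adjusted p under 0.05 (smallest 0.159). Without adjustment, the shares under the same threshold were 8.53% higher and 7.91% lower. DESeq2 called 0.2% of 5011 rows higher and 17.1% lower, and limma-voom called 0.045% of 24431 rows higher and 1.37% lower.

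The NOS3 row was well covered and did not separate the groups. It held 610 and 1045 counts in the siEZH2 libraries and 1003 and 717 counts in the siCTRL libraries. The siEZH2 libraries held both the lowest and the highest count, and the groups overlapped. The row ranked 1301 and 822 among 59385 rows in the siEZH2 libraries and 1069 and 1309 in the siCTRL libraries. Scaled by TMM to a common library size (CPM), NOS3 had 87.2 and 129 CPM in siEZH2 libraries and 209 and 113 CPM in siCTRL libraries, which also overlapped. The means were 108 ± 29.8 CPM in siEZH2 libraries and 161 ± 68.1 CPM in siCTRL libraries (SD, n = 2 each). Its log2 difference, siEZH2 over siCTRL, was −0.57 ± 0.43 (SE). When the scaling factors came from well-covered rows (200 or more counts in 2 libraries), the difference was 0.22, so its sign depends on the scaling. Leaving out siCTRL replicate 1 gave −0.13, leaving out siCTRL replicate 2 gave −1.03 and leaving out siEZH2 replicate 2 gave −0.89. A filter of 50 counts in 2 libraries gave −0.12. In bulk RNA, fewer cells that express a gene and less RNA per cell cannot be told apart.

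The ATG9B row was smaller and higher in the siEZH2 libraries. It held 400 and 308 counts in the siEZH2 libraries and 145 and 97 counts in the siCTRL libraries. Both siEZH2 libraries exceeded both siCTRL libraries, and the lower siEZH2 count was more than double the higher siCTRL count. It ranked 1731 and 2056 among 59385 rows in the siEZH2 libraries and 3547 and 4705 in the siCTRL libraries. Scaled, it had 57.2 and 38.1 CPM in siEZH2 libraries and 30.2 and 15.2 CPM in siCTRL libraries. ATG9B averaged 47.6 ± 13.5 CPM in siEZH2 libraries and 22.7 ± 10.6 CPM in siCTRL libraries (SD, n = 2 each). Its log2 difference was 1.07 ± 0.44 (SE). Of 24431 rows, 31.4% had both siEZH2 libraries above both siCTRL libraries in CPM and 22.9% had both below. ATG9B was selected on this contrast, so its place among the 31.4% is a description.

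Between the groups, the olfactory receptor level was higher in siEZH2 libraries, as ATG9B was, while within each group the library with more ATG9B had the lower olfactory receptor level. With that level subtracted over the length of the row, ATG9B kept 370 and 267 counts in the siEZH2 libraries and 137 and 76.9 in the siCTRL libraries, and the groups still did not overlap. Per kilobase, ATG9B was at 13.3 and 7.6 times the olfactory receptor level in the siEZH2 libraries and at 17.2 and 4.82 times that level in the siCTRL libraries. On that ratio the groups overlapped. NOS3 was at 21.9 and 27.8 times that level in the siEZH2 libraries and at 128 and 38.4 times in the siCTRL libraries, and both siCTRL ratios were the higher ones. These multiples use the pooled level of the olfactory receptor rows. The highest single olfactory receptor row had 40.5 and 51.4 counts per kilobase in the siEZH2 libraries and 8.79 and 23.4 in the siCTRL libraries. In replicate 2 of both groups that row was above ATG9B, which had 48.2 and 15.2. In replicate 1 of both groups it was below ATG9B, which had 62.6 and 22.7. The part of the pooled level in the ATG9B difference was not tested beyond the subtraction.

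The division of counts between the 2 rows needs no scaling between libraries, since both come from the same library. The pair summed to 1010 and 1353 counts in the siEZH2 libraries and 1148 and 814 in the siCTRL libraries, so the sums overlapped. ATG9B took 39.6% of the sum in siEZH2 replicate 1 (exact 95% interval 36.6% to 42.7%) and 22.8% in siEZH2 replicate 2 (20.6% to 25.1%). It took 12.6% in siCTRL replicate 1 (10.8% to 14.7%) and 11.9% in siCTRL replicate 2 (9.77% to 14.3%). The siCTRL libraries differed by less than counting error, while the siEZH2 libraries differed from each other beyond it and both lay above the siCTRL intervals. The intervals cover counting error only and take each count as 1 independent fragment. A count may stand for less than that, so the intervals may be too narrow. The mean share was 19.0 percentage points higher in siEZH2 libraries (pooled SD 8.41), and it was 10.6 points higher without siEZH2 replicate 1. With the olfactory receptor rate subtracted from both rows, the shares were 38.9% and 21.0% in siEZH2 libraries and 12.1% and 9.92% in siCTRL libraries, a difference of 18.9 points.

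NOS3 counts were 1.52 and 3.39 times those of ATG9B in the siEZH2 libraries and 6.92 and 7.39 times in the siCTRL libraries. On the log2 scale, ATG9B's difference exceeded that of NOS3 by 1.64. That gap was 1.07 without siEZH2 replicate 1 and 2.22 without siEZH2 replicate 2, and it lay between these values in every other fit made. An exact permutation test of 2 against 2 libraries cannot give a two-sided p below 0.333, and none was made on these chosen rows.

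**Figure D2:**
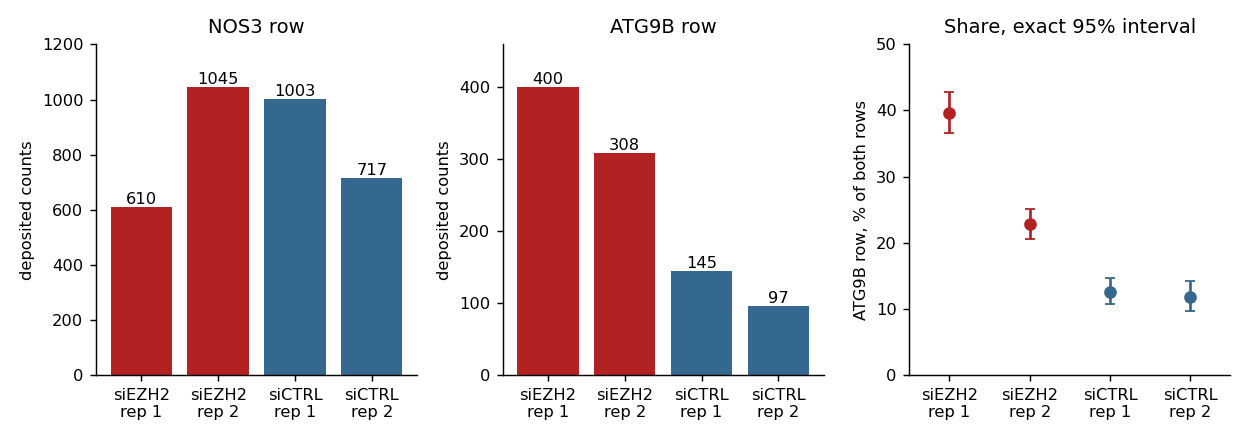
Bars give the deposited counts of the NOS3 row and of the ATG9B row in each siEZH2 (red) and siCTRL (blue) library, and points give the ATG9B share of their sum in percent with exact 95% intervals. NOS3 counts overlap between the groups, while both siEZH2 libraries lie above both siCTRL libraries in ATG9B counts and in its share.

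Log2 differences in these libraries moved with the mean count of the row, so NOS3 and ATG9B were also set beside rows of like counts. The median log2 difference was 0.67 for mean counts under 20 and 0.49 for 20 to 50. It was 0.15 at 50 to 100 counts, −0.52 at 100 to 200 counts, −0.75 at 200 to 1000 counts and −0.71 from 1000 counts. Both NOS3 (mean 843.8 counts) and ATG9B (mean 237.5 counts) fall in the class of 200 to 1000 counts, which holds 1928 rows, 4.46% of them with a positive difference. NOS3 lay 0.18 above the class median, and 32.5% of the class had a difference at least as high. ATG9B lay 1.82 above the class median, and 5 rows of the class, itself included, were as high or higher (0.259%). ATG9B was chosen with this contrast known, so its place in the class is a description. The class is set by the mean over all 4 libraries, which the siEZH2 counts of ATG9B, 400 and 308, raise. Its siCTRL counts, 145 and 97, both lie below 200, and in the class of 100 to 200 counts 23.9% of rows had a positive difference. In the class of 200 to 1000 counts, 1.45% of rows had both siEZH2 libraries above both siCTRL libraries, against 31.4% of all rows. In that same class 74.2% had both below.

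**Figure D3:**
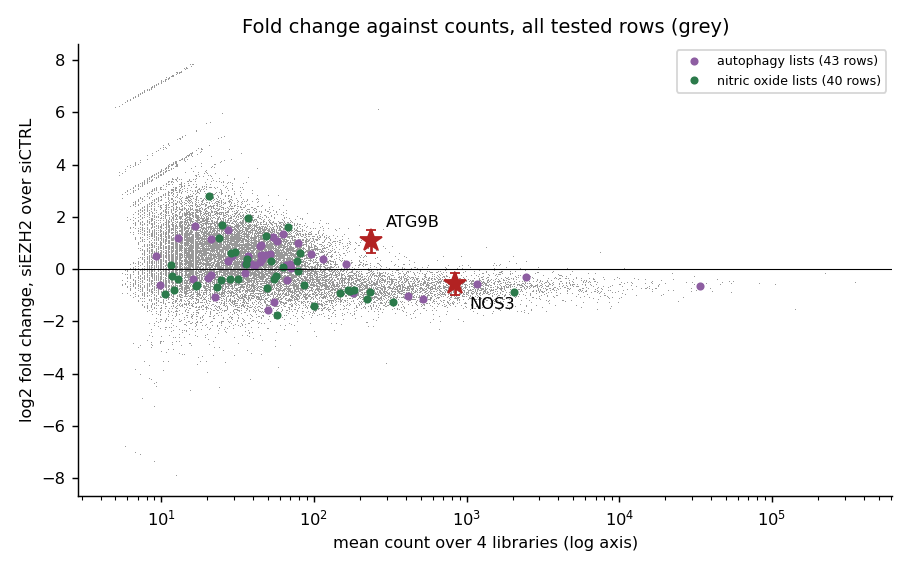
Log2 difference, siEZH2 over siCTRL, of every tested row (grey) against its mean count over 4 libraries on a log axis, with the nitric oxide genes in green, the autophagy genes in purple, and NOS3 and ATG9B as stars with bars of 1 SE. ATG9B, at 1.07, stands above nearly all rows of like count, and NOS3, at −0.57, lies within the band of rows below 0.

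Which transcript each row counts was examined through the levels of rows that face another gene. Libraries came from a stranded kit, per the labels, and the strand setting of the counting is not given in the sources used here. If each row counts its own strand, the NOS3 row holds NOS3 transcripts over 5931 bases and the ATG9B row holds ATG9B transcripts over 6391 bases. If each row counts the opposite strand, the NOS3 row holds minus-strand reads within NOS3 exons. Annotated ATG9B exons supply such reads in 786 bases only, and the ATG9B row in turn holds NOS3 reads from the same bases. If strand was ignored, both rows hold reads of both genes there. Under the opposite-strand reading, the difference of the ATG9B row would be one of plus-strand reads within ATG9B exons. NOS3 exons face 12.3% of that row, and how many of its counts lie there is not given by the table.

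Rows outside the pair were read for their strand. MT-ND6 is the sole protein gene on the light strand of the mitochondrial genome, where its messenger RNA is known to be scarce beside those of the heavy strand. Its row took 77.8% and 78.9% of the counts of 13 mitochondrial protein rows in the siEZH2 libraries and 69.9% and 80.5% in the siCTRL libraries. The tail-to-tail coding pairs with most counts showed a like division. Rows of BEST1, a chloride channel of the retina, and of SNX22, a sorting nexin, took 99.8% and 99.5% of the counts of their pairs with FTH1, the ferritin heavy chain, and PPIB, an abundant cyclophilin. The row of SH3D19 took 99.9% of its pair with the ribosomal protein gene RPS3A, and that of the autophagy gene ATG10 took 99.9% of its pair with the ribosomal protein gene RPS23. FTH1, PPIB, RPS3A and RPS23 are abundantly transcribed in most cells, and their own rows held the small part. In the pair with the next most counts, STUB1 and JMJD8, the division was close to even, with 53.0% in JMJD8.

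The levels of NOS3 and ATG9B were then set beside coding rows grouped by what they face, as counts per kilobase of row. NOS3 had 103 and 176 counts per kilobase in siEZH2 libraries and 169 and 121 in siCTRL libraries, a mean of 142. ATG9B had 62.6 and 48.2 in siEZH2 libraries and 22.7 and 15.2 in siCTRL libraries, a mean of 37.2. Among 12494 coding rows that face no annotated exon, the median was 5.17 counts per kilobase, and 64 rows (0.512%) were at or above NOS3 and 329 (2.63%) at or above ATG9B. Among 2672 coding rows that face a coding gene by 100 bases or more, the median was 18.3, and 18.0% were at or above NOS3 and 37.0% at or above ATG9B. Levels of this size were thus less frequent among rows that face nothing than among rows that face a coding gene. If every count of the NOS3 row lay in its 786 shared bases, the level there would be 776 and 1330 counts per kilobase in siEZH2 libraries and 1276 and 912 in siCTRL libraries. For ATG9B the same calculation gives 509 and 392 in siEZH2 libraries and 184 and 123 in siCTRL libraries. The table gives 1 count per row and library, so where in a row its counts lie, and the strand setting itself, was not tested.

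Some rows that face nothing were also well covered. Of 10 luminal prostate marker rows that face no annotated exon, levels ran from 7.92 to 161 counts per kilobase with a median of 36.5, close to the ATG9B mean of 37.2. Of these, 1 was above NOS3 and 5 were above ATG9B, and KLK3, which encodes prostate-specific antigen, had 98.4. A level like that of NOS3 or ATG9B was therefore also present in rows with no facing exon.

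Along chromosome 7, the NOS3 and ATG9B rows had higher mean levels than all of the 18 other rows of the neighbourhood that were listed. Those rows had means from 3.16 (TMEM176A) to 33.0 (SLC4A2) counts per kilobase, with a median of 7.1. ATG9B was at 5.23 times that median, and NOS3, at 142 counts per kilobase, was higher still. SLC4A2, an anion exchanger whose exons face the kinase gene CDK5, had 173 and 229 counts in siEZH2 libraries and 319 and 278 in siCTRL libraries. Its log2 difference was −1.05 (edgeR adjusted p = 0.247), against 1.07 in the ATG9B row.

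The genes that flank the pair and face none of its exons had few counts. KCNH2, a potassium channel gene before NOS3, had 21 and 99 counts in siEZH2 libraries and 7 and 8 in siCTRL libraries (log2 difference 2.48, edgeR adjusted p = 0.203). AOC1, the diamine oxidase gene, had 23 and 69 counts in siEZH2 libraries and 7 and 6 in siCTRL libraries (2.30, adjusted p = 0.240). ABCB8, a mitochondrial transporter gene beyond the start of ATG9B, had 59 and 68 counts in siEZH2 libraries and 6 and 37 in siCTRL libraries (1.22, adjusted p = 0.376). In KCNH2, AOC1 and ABCB8, at levels of 4.55 to 6.93 counts per kilobase, both siEZH2 counts exceeded both siCTRL counts, as in ATG9B. In CPM, 31.4% of all tested rows had both siEZH2 libraries above both siCTRL libraries. Further along, AGAP3 had 122 and 185 counts in siEZH2 libraries and 97 and 138 in siCTRL libraries (−0.05, adjusted p = 0.958), and FASTK had 98 and 77 in siEZH2 libraries and 63 and 78 in siCTRL libraries (−0.11, adjusted p = 0.924). SMARCD3, a chromatin remodelling subunit that faces CHPF2, had 94 and 198 counts in siEZH2 libraries and 187 and 150 in siCTRL libraries (−0.71, adjusted p = 0.415), with the groups overlapping as in NOS3. TMUB1 and ASIC3 had −1.16 and −0.65, while CDK5, CHPF2, NUB1, ABCF2, IQCA1L and GBX1 lay between −0.48 and 0.92 (adjusted p from 0.325 to 0.926). TMEM176A, TMEM176B and ASB10 had too few counts to be tested. Of 15 neighbours tested with edgeR, 6 had a positive and 9 a negative difference and none passed the adjusted threshold. Their median was −0.11, against 0.22 over all 24431 rows. With scaling factors from well-covered rows it was 0.57, against 0.88 over all rows, and it was 0.11 without siEZH2 replicate 2 and 0.01 without siCTRL replicate 1.

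**Figure D4:**
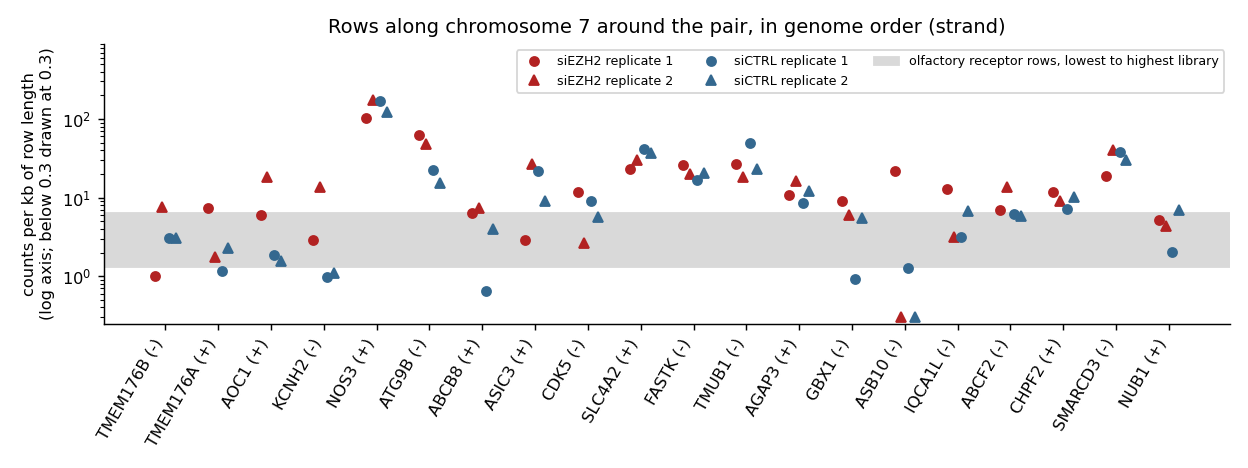
Counts per kilobase of row on a log axis in each siEZH2 (red) and siCTRL (blue) library for NOS3, ATG9B and the listed neighbours in their order along chromosome 7, with the strand after each name, values under 0.3 drawn at 0.3, and a grey band from the lowest to the highest library level of the olfactory receptor rows (1.32 to 6.34). NOS3 lies above every neighbour in every library, while the siCTRL points of ATG9B, 22.7 and 15.2, lie among those of its neighbours.

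The division between NOS3 and ATG9B was compared with that of other coding pairs in the same libraries. Pairs were taken where each gene faces only the other by at least 100 shared exonic bases and the pair has at least 100 counts over the 4 libraries. This gave 884 pairs, 486 of them tail to tail, 311 head to head and 87 nested. The larger row, NOS3, took 78.0% of its pair's counts over the 4 libraries, against a median of 81.0% for the larger row of all pairs and 82.0% for tail-to-tail pairs. In 487 pairs (55.1%) the larger row took at least as large a share. The overlap of 786 bases was longer than the tail-to-tail median of 522. Pairs just below it in share were NOL3 with KIAA0895L at 77.9%, and CCNK with CCDC85C and DMTF1 with TMEM243 at 77.8%. Pairs just above it were ZNF135 with ZSCAN18 and RNF220 with TMEM53 at 78.1%, and CYP2E1 with SYCE1 at 78.2%. The position differed by library. In siEZH2 replicate 1, 88.5% of pairs had at least as large a share in the larger row, and in siEZH2 replicate 2 it was 56.2%, against 57.4% and 48.6% in the siCTRL libraries.

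The change in that division was less common. For 846 pairs with both rows tested, the log2 difference of the smaller row minus that of the larger row had a median of 0.24, and 66 pairs (7.8%) reached the 1.64 of ATG9B minus NOS3. Smaller rows have higher differences in these libraries, so pairs with at least 100 mean counts in both rows were also taken. Among 237 such pairs the median was 0.07 and 5, NOS3 and ATG9B included, were at 1.64 or above. NOS3 and ATG9B were chosen with this contrast known, so both rankings are descriptions. Among the others were TMEM140 with CYREN at 2.09, RAD54L with LRRC41 at 1.88 and PALLD with CBR4 at 1.77. In 22 of the 237 the smaller row had a positive and the larger row a negative difference, as in ATG9B and NOS3.

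**Figure D5:**
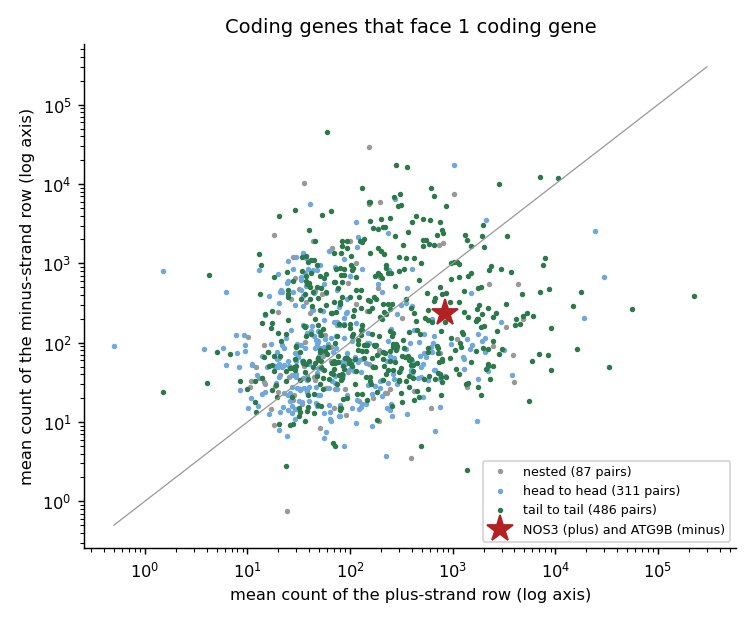
Mean count of the minus-strand row against that of the plus-strand row, both on log axes, for 884 opposite-strand coding pairs coloured by arrangement, with a line where both rows are equal. NOS3 with ATG9B (star) lies below the line and among the other tail-to-tail pairs.

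Rows with the most similar pattern over the 4 libraries were found by the root mean square distance between centred log2 CPM values, among 8477 rows whose mean count was 50 or more. Nearest to NOS3 were KIF22, a chromosome-binding kinesin, at 0.015, DMAC2L at 0.016 and TNK2-AS1 at 0.019. KIF22 had 59 and 106 counts in siEZH2 libraries and 102 and 71 in siCTRL libraries, the alternation seen in NOS3. Nearest to ATG9B were NCKAP5L at 0.118, SEC31A, a coat protein of vesicles leaving the endoplasmic reticulum, at 0.131, and PDPR, a regulatory subunit of pyruvate dehydrogenase phosphatase, at 0.164. NCKAP5L had 103 and 82 counts in siEZH2 libraries and 33 and 27 in siCTRL libraries. Of these 6 rows, TNK2-AS1 faces TNK2 and SEC31A faces THAP9, and DMAC2L was not placed on the annotation. With 4 libraries, likeness of this kind is a description.

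Genes that make nitric oxide or feed the synthases were listed with NOS3. The strand that rows of this list and of the lists below count is not known. Whether they hold messenger RNA of the named genes was not tested. Of 26 such genes tested besides NOS3, 7 had a positive and 19 a negative log2 difference, with a median of −0.62 against 0.22 over all rows. None passed edgeR's adjusted threshold, for which the background is 0.0% in each direction, with 0.196 the smallest adjusted p. Without adjustment, 3 were higher and 3 lower at a p under 0.05, against 8.53% and 7.91% of all rows. DESeq2 called 3 lower, HSP90AA1 and HSP90AB1 among them, against 17.1% of all rows it tested. With scaling factors from well-covered rows the list's median was 0.07, against 0.88 over all rows, so its sign depends on the scaling. Under both scalings it lay below the median of all rows.

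The other synthases had far fewer counts than NOS3. NOS1, the neuronal synthase, had 82 and 108 counts in siEZH2 libraries and 31 and 88 in siCTRL libraries, a log2 difference of 0.30 (edgeR adjusted p = 0.786). NOS2, the inducible synthase, had 22 and 5 counts in siEZH2 libraries and 7 and 12 in siCTRL libraries, a difference of 0.16 (adjusted p = 0.955). Their mean levels were 5.89 and 2.61 counts per kilobase, near the median of rows that face nothing, against 142 for NOS3. Counts of NOS1 and NOS2 overlapped between the groups.

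The named regulators of NOS3 differed in sign. CALM2, which encodes the calmodulin that switches NOS3 on, had 69 and 55 counts in siEZH2 libraries and 4 and 21 in siCTRL libraries (log2 difference 1.97, edgeR adjusted p = 0.237). Caveolin 1, encoded by CAV1, holds NOS3 inactive at the membrane, and its row had 54 and 20 counts in siEZH2 libraries and 4 and 4 in siCTRL libraries (2.78, adjusted p = 0.222). HSP90AB1, a form of the chaperone that binds NOS3, had 156 and 330 counts in siEZH2 libraries and 386 and 451 in siCTRL libraries (−1.26, adjusted p = 0.199). ARG2, an arginase that consumes the synthases' substrate, had most counts of the list, with 1812 and 1686 in siEZH2 libraries and 2414 and 2206 in siCTRL libraries. ARG2 faces VTI1B on the other strand, and its difference was −0.86 (adjusted p = 0.312). The counts of the groups did not overlap in any of these 4 rows, and none passed the test. These rows were named for their most counts or largest differences. Of all tested rows, 31.4% had both siEZH2 libraries above both siCTRL libraries in CPM and 22.9% had both below.

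Of 14 tested genes that act downstream of nitric oxide, 8 had a positive and 6 a negative difference, with a median of 0.13 and a smallest edgeR adjusted p of 0.192. Without siCTRL replicate 1 the median was −0.22, and without siEZH2 replicate 2 it was −0.17. PRKG1, the main cyclic GMP-dependent kinase of smooth muscle, had 61 and 155 counts in siEZH2 libraries and 3 and 53 in siCTRL libraries (1.60, adjusted p = 0.292). PDE5A, the phosphodiesterase that breaks down cyclic GMP, had 139 and 156 counts in siEZH2 libraries and 171 and 203 in siCTRL libraries (−0.78, adjusted p = 0.341). AKR1A1, a reductase that also acts on S-nitrosylated coenzyme A, had 32 and 34 counts in siEZH2 libraries and 80 and 83 in siCTRL libraries (−1.75, adjusted p = 0.192). PRKG1 had the wider spread within each group, while AKR1A1 counts were nearly equal within each group. Of GUCY1A2, a guanylate cyclase subunit, and PRKG2, a further cyclic GMP-dependent kinase, the differences were 0.62 and 1.69 (adjusted p = 0.594 and 0.323).

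The row of ATG9A, the ubiquitous paralog of ATG9B, had a difference of the other sign. The strand it counts is not known, so whether it holds ATG9A messenger RNA was not tested. It faces no annotated exon and held 34 and 47 counts in siEZH2 libraries and 78 and 60 in siCTRL libraries. The log2 difference was −1.26 ± 0.55 (SE; edgeR adjusted p = 0.281). Its mean level of 11.6 counts per kilobase was below the 37.2 of ATG9B. In each siEZH2 library ATG9A was under its lower siCTRL count, the reverse of ATG9B. In CPM, 22.9% of all tested rows had both siEZH2 libraries below both siCTRL libraries.

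Of 21 tested genes of autophagy initiation and membrane supply besides ATG9B, 16 had a positive and 5 a negative difference, with a median of 0.26 against 0.22 over all rows. None passed edgeR's adjusted threshold, and at an unadjusted p under 0.05, 1 was higher and 3 lower, against 8.53% and 7.91% of all rows. The median was 0.61 without siCTRL replicate 2, 0.39 without siEZH2 replicate 2 and 0.98 with scaling by well-covered rows. Medians over all rows in the same settings were 0.70, 0.20 and 0.88. RB1CC1, the scaffold of the initiating kinase complex, had 71 and 93 counts in siEZH2 libraries and 17 and 36 in siCTRL libraries (1.22, adjusted p = 0.301). ATG101, a partner of ATG13 in that complex, had 22 and 42 counts in siEZH2 libraries and 70 and 67 in siCTRL libraries (−1.58, adjusted p = 0.220). WIPI1, which binds phosphoinositides on the growing membrane, had 179 and 120 counts in siEZH2 libraries and 183 and 236 in siCTRL libraries (−0.90, adjusted p = 0.304), and faces ARSG. ATG2B, a lipid transfer protein that works with the ATG9 proteins, had 128 and 123 counts in siEZH2 libraries and 44 and 85 in siCTRL libraries (0.57, adjusted p = 0.537), and faces GSKIP. WDR45, a relative of WIPI1, had 1.48 (adjusted p = 0.360).

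Of 22 tested genes of autophagosome conjugation and cargo, 12 had a positive and 10 a negative difference, with a median of 0.13 and a smallest edgeR adjusted p of 0.222. Without siCTRL replicate 1 the median was −0.25. DESeq2 called ATG4D and ATG16L2 lower, against 17.1% of all rows it tested. ATG4D, a protease that trims the lipid-linked ATG8 proteins, had 323 and 481 counts in siEZH2 libraries and 727 and 531 in siCTRL libraries (−1.15, adjusted p = 0.222), and faces KRI1. ATG10, the conjugating enzyme for ATG12, had 31403 and 32156 counts in siEZH2 libraries and 38207 and 32545 in siCTRL libraries (−0.63, adjusted p = 0.537), and faces RPS23. ATG7, the activating enzyme, had 1933 and 3317 counts in siEZH2 libraries and 2446 and 2101 in siCTRL libraries (−0.29, adjusted p = 0.746), and faces VGLL4. ATG10 and ATG7, the rows of this list with most counts, thus face another gene, as the ATG9B row does. CALCOCO2, a cargo receptor whose row faces nothing, had 112 and 83 counts in siEZH2 libraries and 29 and 27 in siCTRL libraries (1.36, adjusted p = 0.261). GABARAPL2 and GABARAPL1, of the ATG8 family, had 1.16 and −1.08 (adjusted p = 0.524 and 0.523).

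Because NOS3 is known from endothelium, endothelial markers were read beside it. The 14 marker rows, none at 0 in all libraries, together held 7.26 and 7.62 counts per kilobase in siEZH2 libraries and 3.25 and 5.46 in siCTRL libraries. CDH5, the cadherin of endothelial junctions, had 43 and 46 counts in siEZH2 libraries and 6 and 9 in siCTRL libraries (log2 difference 2.13, edgeR adjusted p = 0.247), a mean of 4.28 counts per kilobase. KDR, a receptor for vascular endothelial growth factor, had 73 and 55 counts in siEZH2 libraries and 11 and 12 in siCTRL libraries (2.04, adjusted p = 0.207). CDH5 and KDR had the largest positive differences of the 13 tested and were added after their values were seen. CLDN5, a tight junction protein, had the highest level of the list at 27.9 counts per kilobase and a difference of −1.43 (adjusted p = 0.204), and DESeq2 called it lower, against 17.1% of all rows it tested. TEK and FLT1, further vascular receptors, had 1.55 and 0.87 (adjusted p = 0.288 and 0.435). ROBO4, PECAM1 and EMCN had 1.27, 0.79 and 0.72, and TIE1, ERG and VWF had 0.39, 0.39 and 0.31. ESAM and EGFL7 had −0.37 and −1.11. For these further rows, edgeR adjusted p ran from 0.407 to 0.893. Of 13 tested, 10 had a positive and 3 a negative difference, with a median of 0.72, which was 0.18 without siCTRL replicate 1. Over all rows 56.7% were positive, and among rows of 20 to 50 counts, where the median endothelial row lies at 30.9, 69.3% were positive with a median of 0.49. Their joint level was higher than that of the olfactory receptor rows in each library and far below the 142 counts per kilobase of NOS3. The part of endothelial cells in the NOS3 row was not tested, and neither was the strand that the marker rows count.

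Rows of luminal prostate markers held counts in every library. The strand these rows count is not known, so whether the counts are luminal marker RNA was not tested. The 12 rows together held 348 and 187 counts per kilobase in siEZH2 libraries and 341 and 337 in siCTRL libraries, mostly from KRT8, whose exons face KRT18. All 12 had negative differences, with a median of −0.91 (−0.16 with 4 of 12 positive under scaling by well-covered rows, and 2 of 11 positive with a filter of 50 counts in 2 libraries), and none passed edgeR's adjusted threshold (smallest adjusted p 0.189). DESeq2 called 3 lower, KLK3 and KLK2 among them, against 17.1% of all rows it tested, and limma-voom called KLK2 lower, against 1.37%. Negative differences are the rule among well-covered rows, since 4.46% of rows with 200 to 1000 counts and 1.67% of larger rows were positive, and the median luminal row had a mean of 203 counts.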

How the data were processed

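The authors deposited whole-number counts per gene, not normalised or pooled, for 4 total RNA libraries from a stranded kit, per the labels. Tools in the submitters' processing notes are featureCounts 2.0.3, STAR 2.7.10b, limma and edgeR, with the build GRCh38; their roles, the annotation release, read layout and strand setting are not given there. Columns were matched to libraries by sample title. Members and gene lists were chosen with earlier results of these data known. In each list the text names the rows with most counts and those with the largest differences in each direction where the mean count was 20 or more, with NOS1, NOS2, ATG9A and the listed neighbours of the pair. CDH5, KDR and the other endothelial rows outside this rule were added after their values were seen. Some items that this rule selects are not reported here.

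Rows were kept by filterByExpr (24431), scaled by TMM and tested with edgeR 4.0.16 in R 4.3.3 (glmQLFit and glmQLFTest, no covariate, Benjamini-Hochberg over all kept rows, calls under 0.05). The common dispersion of 0.216 corresponds to a coefficient of variation of 46.5% between libraries. DESeq2 1.42.0 and limma-voom 3.58.1 were alternatives. The fit was tested on simulated counts, where it recovered few of the 4-fold increases, the smaller size simulated. A row it does not call may therefore still differ. Rows were placed on GENCODE release 29 by symbol (37665 rows, 63.4%), of which 58.1% had the same row length, so the authors' release may differ. Total counts were 6162123 to 6867542, and 65.1% to 73.8% of counts from 1 to 20 were even, so a count may stand for less than 1 independent fragment.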

Additional observations from a re-analysis of the deposited data

How the results depend on the processing

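Over 12 other settings the ATG9B difference stayed positive (0.58 to 1.82) and that of NOS3 was negative in 11 (−1.03 to 0.22). The exception for NOS3 was scaling by well-covered rows, which gave NOS3 0.22 and ATG9B 1.82 and raised the median of all rows to 0.88, against 0.22. Under it the nitric oxide synthesis median was 0.07 and the neighbourhood median 0.57. Leaving out siCTRL replicate 2 gave ATG9B 0.58, siEZH2 replicate 1 gave 0.68 and siCTRL replicate 1 gave 1.58, against 1.07. With 1 library left out, the nitric oxide response median ran from −0.22 (without siCTRL replicate 1) to 0.31, and was −0.17 without siEZH2 replicate 2. It was 0.78 with scaling by well-covered rows. The share difference ran from 10.6 to 27.4 points. Counts of all rows called higher were 1 with RLE factors, 12 with no filter, 10 with DESeq2 and 11 with limma-voom, against 0. Rows called lower numbered 12, 68, 858 and 334 in the same order, also against 0. Leaving out 1 library gave 0 to 61 higher and 1 to 173 lower, the most without siEZH2 replicate 1, and the lone library is then assumed to vary like the others. With a replicate block, 248 were higher and 1079 lower, and NOS3 had −0.53 and ATG9B 1.12 there. Replicate numbers came from titles alone, and same-numbered libraries deviated from their group means with r = 0.05 over the kept rows. Whether they share a batch was not tested beyond that correlation. The causes were not tested. Subtracting the olfactory receptor rate was chosen after seeing the data. With 97 counts in the lowest library, ATG9B shares still carried intervals of several points.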
